A study of Mus musculus with 6 samples.

Results

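Lymphatic identity genes are the genes by which lymphatic endothelial cells are told apart from blood vessel cells. The 10 described here were chosen by gene symbol from the 18482 genes of the study's count table: the transcription factors Prox1 and Maf, the surface receptors Lyve1, Stab2 and Pdpn, the secreted proteins Mmrn1, Reln, Sned1 and Fgl2, and the junction protein Cldn11. VEGF receptors, CCL21 and valve genes were left out of this set by design. All 10 were listed in the table, and 9 of the 10 had enough reads to be tested. Stab2 did not.

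The RNA came from ear skin of mice at postnatal day 21. The lecko mice had a lymphatic-specific deletion of Vegfr2, the gene with the official symbol Kdr, and the control mice were their littermates. Both groups were treated with tamoxifen, and each group held 3 libraries. The sources used here give neither the driver of the deletion nor the strain, the alleles of the controls or which tamoxifen schedule these mice had. The labels name no animal for a library, so a p-value here speaks of the spread among these 6 samples, part of which may be technical.

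Prox1 is the transcription factor that turns venous endothelial cells into lymphatic cells in the embryo and that keeps them lymphatic afterwards. It is induced by Sox18 and Nr2f2, and it sustains the expression of the receptor VEGFR3 (Flt4), through which the ligands VEGF-C and VEGF-D drive lymphatic growth. In skin, blind-ended lymphatic capillaries drain fluid and immune cells, and carry Lyve1 and podoplanin on their surface. Several of these genes are also active in other cells: Lyve1, Maf and Fgl2 in macrophages, Pdpn in fibroblasts and keratinocytes, Mmrn1 in platelets, and Prox1 in slow skeletal muscle.

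Total counts were 17242921 to 17825135 per library, and 14856 genes were tested. Kdr was lower in every lecko library than in every control, falling from a mean of 34.1 CPM (SD 3.80) to a mean of 10.4 CPM (SD 0.731) over 3 libraries each, where CPM is the read count scaled to the size of the library. Reads of 4 Y-linked genes summed to 245 and 260 CPM in controls 2 and 3 and to at most 1.19 CPM in the other 4 libraries. Sex thus differed between the groups as well as genotype, and control 1 was the sole control with Y-linked reads as low as in the lecko libraries. A fit with sex as a covariate therefore takes its group difference from control 1 against the lecko libraries. Values given below with sex as a covariate rest on that control and do not separate sex from genotype in the other controls.

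While Kdr fell, no identity gene passed the test of a difference between the groups in bulk skin. The test was the quasi-likelihood test of edgeR, with p-values adjusted over all genes by the Benjamini-Hochberg method and a threshold of 0.05. By it, 0 of the 9 tested identity genes were called, where 0.0202% of all tested genes were (0.0135% higher and 0.00673% lower, 3 genes in all, Kdr among them). At an unadjusted p under 0.05 there was 1 of 9, Reln, against 8.56% of all genes. DESeq2 and limma-voom also called 0 identity genes, each with 1 at an unadjusted p under 0.05. That count rested on single libraries: it was 4 without lecko 1 (Fgl2, Reln, Lyve1 and Cldn11, all lower and with 0 called), and 0 without lecko 3 or with sex as a covariate. Of the 9, 4 had a positive and 5 a negative log2 fold change (lecko against control), with a median of -0.10 where the median of all tested genes was 0.01. The fold changes ran from -0.42 for Cldn11 to 0.20 for Pdpn. Summed over the 10 genes, the level was 593 to 615 CPM in controls and 580 to 620 CPM in lecko skin, so the summed levels overlapped. In bulk tissue, fewer lymphatic cells and less RNA per lymphatic cell cannot be told apart.

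**Figure D1:**
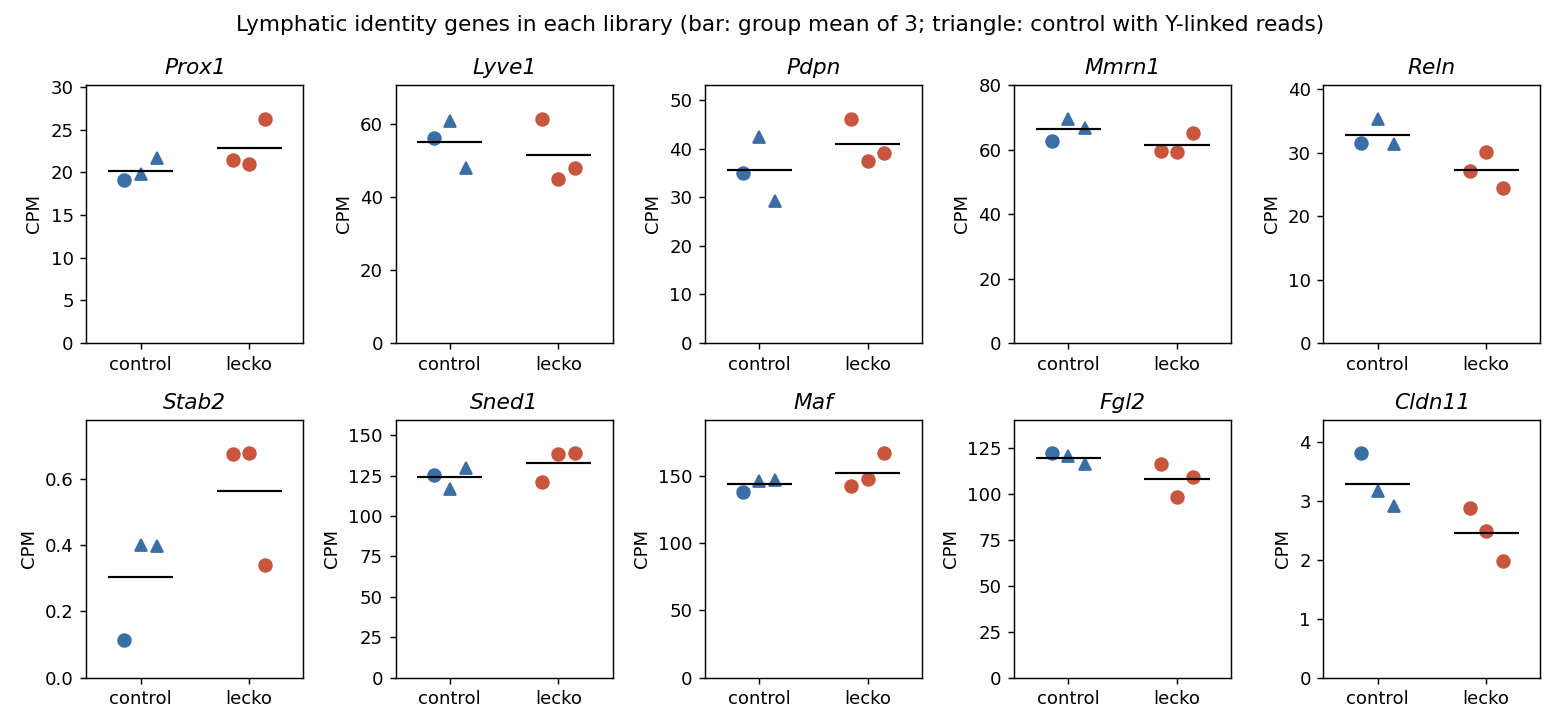
Level of each of the 10 identity genes in CPM (vertical axes, from 0) in the 3 control and 3 lecko libraries; each point is a library, bars are group means and triangles are the controls with Y-linked reads. Only for Reln and Cldn11 do all lecko points lie below all control points.

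Prox1 gave 19.1, 19.8 and 21.7 CPM in controls 1 to 3 and 21.5, 21.0 and 26.3 CPM in lecko libraries 1 to 3. The groups overlapped, since control 3 lay above lecko libraries 1 and 2, and lecko 3 was the highest. This gave a log2 fold change of 0.18 (SE 0.11, 95% interval -0.06 to 0.42; adjusted p = 0.664 by edgeR). The interval spans 0.959 to 1.34 times the control level, so a loss of Prox1 RNA in whole skin of the size seen for Kdr (0.258 to 0.359 times) lay outside it. Without lecko 3 the log2 fold change of Prox1 was 0.07. With sex as a covariate it was 0.26, a value that rests on control 1 alone among the controls.

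Maf, a basic leucine zipper factor that is also made by macrophages, gave 138, 146 and 147 CPM in controls 1 to 3 and 142, 148 and 167 CPM in lecko libraries. As for Prox1, lecko 3 was the highest library and the groups overlapped. Its log2 fold change was 0.08 (95% interval -0.07 to 0.24; adjusted p = 0.767 by edgeR). Without lecko 3 it was 0.01.

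Lyve1, a hyaluronan receptor of lymphatic capillaries and of some tissue macrophages, gave 56.1, 60.7 and 47.9 CPM in controls and 61.4, 44.8 and 47.8 CPM in lecko libraries. The highest library was lecko 1 and the lowest lecko 2, so the lecko group held both ends of the range. Lyve1 had a log2 fold change of -0.10 (95% interval -0.41 to 0.22; adjusted p = 0.855 by edgeR). It was -0.26 without lecko 1 and -0.01 without lecko 2. Lyve1 reads numbered 792 to 1088 per library, so counting error alone would give a coefficient of variation of 3.28%, and the pooled coefficient between libraries of a group was 14.6%.

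Pdpn encodes podoplanin, a mucin-type surface protein that binds the platelet receptor CLEC-2. It gave 35.0, 42.4 and 29.2 CPM in controls and 46.2, 37.4 and 39.1 CPM in lecko libraries. The groups overlapped through control 2, and control 3 was the lowest library. For Pdpn the log2 fold change was 0.20 (95% interval -0.12 to 0.53; adjusted p = 0.716 by edgeR), the highest of the 9. Without control 2 it was 0.35 (adjusted p = 0.319, the smallest of any tested identity gene over 17 alternatives), and without control 3 it was 0.08.

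Stab2, a scavenger receptor for hyaluronan known mainly from sinusoidal endothelium of the liver and lymph nodes, was close to the limit of detection. Controls 1 to 3 held 2, 7 and 7 of its reads, and lecko libraries 1 to 3 held 12, 12 and 6. The groups overlapped, with lecko 3 below controls 2 and 3. Without a filter on low counts its adjusted p was 0.731 by edgeR, and at 16 reads in all controls together against 30 in all lecko libraries no difference was detected. In a fit with control 1 as the sole control, the library with 2 reads, its log2 fold change was 2.22 (unadjusted p = 0.0457, adjusted p = 0.765 by edgeR).

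Reln was the identity gene with the smallest p. Reelin is a large secreted glycoprotein, which lymphatic endothelium makes and which signals through Vldlr and Lrp8. It gave 31.6, 35.4 and 31.3 CPM in controls 1 to 3 and 27.1, 30.1 and 24.5 CPM in lecko libraries. All lecko libraries lay below all controls, by a gap of 1.27 CPM between control 3 and lecko 2. The log2 fold change was -0.27 (SE 0.09, 95% interval -0.48 to -0.06), with an unadjusted p = 0.0183 and an adjusted p = 0.526 by edgeR, so it did not pass. With sex as a covariate the log2 fold change was -0.21 and with each library left out it lay between -0.34 and -0.20. Groups without overlap were found for 2 of the 9 tested identity genes (Reln and Cldn11, both lower), against 14.6% of all tested genes in either direction (7.23% lower and 7.37% higher).

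Cldn11, a tight junction protein best known from myelin and the testis, was the other gene without overlap. Its levels were 3.80, 3.16 and 2.91 CPM in controls and 2.88, 2.49 and 1.99 CPM in lecko libraries, which came from 51 to 66 reads and 35 to 51 reads. The separation was narrow, 2.91 CPM in control 3 against 2.88 CPM in lecko 1, both from 51 reads. The log2 fold change of -0.42 had a 95% interval of -0.88 to 0.03 (adjusted p = 0.608 by edgeR). Its pooled coefficient of variation between libraries, 15.8%, was close to the 14.1% that counting error alone would give. Schwann cell and perineurial genes, a list with myelin genes, summed to 2021 to 2137 CPM in controls and 1908 to 1936 CPM in lecko skin, without overlap. This list includes Itgb4, which is also counted among the basal keratinocyte genes, so the sum does not come from nerve cells alone. Of these 11 genes 10 were negative, 0 passed the test and 0 were at zero in all libraries. Their part in the Cldn11 values was not tested.

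Mmrn1 encodes multimerin 1, a matrix and platelet granule protein that marks lymphatic endothelium. It gave 62.7, 69.7 and 66.7 CPM in controls and 59.7, 59.3 and 65.2 CPM in lecko libraries. The groups overlapped, as lecko 3 lay above control 1. The log2 fold change was -0.11 (95% interval -0.26 to 0.04; adjusted p = 0.664 by edgeR), and it was -0.03 with sex as a covariate. Platelet genes summed to 57.7 to 71.1 CPM in controls and 60.1 to 65.8 CPM in lecko skin over 9 genes in the table, so they overlapped.

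Sned1, an extracellular matrix protein with nidogen and EGF-like domains, gave 126, 116 and 130 CPM in controls and 121, 139 and 139 CPM in lecko libraries. The groups overlapped through lecko 1, and its log2 fold change was 0.10 (95% interval -0.06 to 0.26; adjusted p = 0.721 by edgeR). With single libraries left out it lay between 0.05 (without control 2) and 0.15 (without lecko 1), and it was 0.07 without lecko 2 or lecko 3. The exons of Sned1 share 1855 bases with those of Mterf4 on the opposite strand, and because the strand setting of the counts is not given, reads of these bases cannot be assigned with certainty.

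Fgl2 encodes a fibrinogen-like protein that is made by macrophages and T cells as well as endothelium. It gave 122, 121 and 116 CPM in controls and 116, 98.5 and 109 CPM in lecko libraries. Only lecko 1 reached the range of the controls, above control 3 by less than 1 CPM. Its log2 fold change was -0.15 (95% interval -0.30 to 0.01; adjusted p = 0.596 by edgeR). Without lecko 1 it was -0.21 and without lecko 2 it was -0.09.

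**Figure D2:**
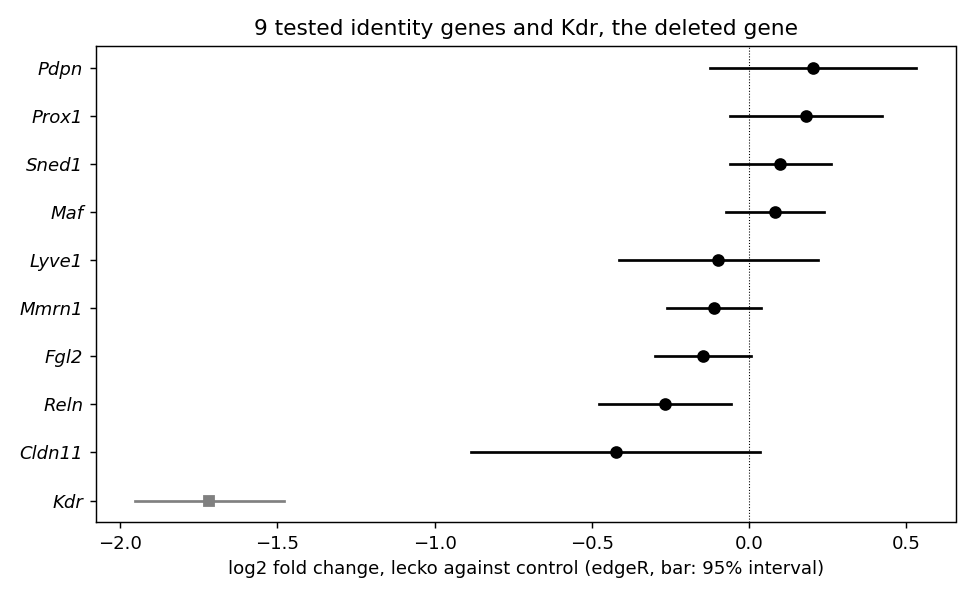
Log2 fold change (horizontal axis, lecko against control) of the 9 tested identity genes and of Kdr, with 95% intervals from edgeR. Intervals of 8 identity genes include 0 and that of Reln ends at -0.06, while the Kdr interval runs from -1.95 to -1.48.

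Libraries differed in which identity genes were high. Lecko 3 was the highest library for 3 of the 10 genes (Prox1, Maf and Sned1) and the lowest for 2 (Reln and Cldn11). Control 1 was the highest for 2 and the lowest for 3, among them Prox1. No library was therefore high or low across the whole set. After centring each gene, the median over the 10 genes ran from -0.03 in control 1 to 0.11 in control 2 on the log2 scale.

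Levels set against each other per transcript length, as CPM per kilobase of the longest coding transcript, spanned a wide range. In controls Fgl2 was the highest at 31.6 ± 0.832 CPM per kilobase, followed by Maf (22.6 ± 0.808), Pdpn (19.5 ± 3.62), Lyve1 (19.0 ± 2.24), Mmrn1 (14.8 ± 0.785) and Sned1 (13.5 ± 0.744; SD, n = 3 each). Reln (2.80 ± 0.195), Prox1 (2.55 ± 0.172) and Cldn11 (1.76 ± 0.246) were lower, and Stab2 was the lowest at 0.0371 ± 0.0200. Neighbours in this order overlapped between control libraries for Maf and Pdpn, Pdpn and Lyve1, Mmrn1 and Sned1, and Reln and Prox1. In lecko skin Prox1 (2.90 ± 0.373) stood above Reln (2.33 ± 0.238) without overlap. The lecko mean of Sned1 (14.5 ± 1.13) was above that of Mmrn1 (13.7 ± 0.729), but their libraries overlapped. By their means Fgl2, Maf, Pdpn and Lyve1 came in this order in lecko skin too, where each overlapped the next. This order depends on the lengths used, as the annotation behind the counts is not given. For Maf the length was 6360 bases, longer than its whole RefSeq gene (chr8:115703253-115706894). A shorter length would raise Maf, so its place below Fgl2 is not certain.

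Ratios between identity genes within a library do not depend on the scaling of libraries, apart from the prior count added to each. Of 45 pairs of the 10 genes, 12 had ratios that did not overlap between the groups, where 14.5% of all pairs of tested genes had such ratios. Reln took part in 5 and Pdpn in 4 of the 12. The log2 ratio of Prox1 to Reln was -0.72, -0.84 and -0.52 in controls 1 to 3 and -0.33, -0.52 and 0.10 in lecko libraries 1 to 3. All lecko ratios were higher, with control 3 and lecko 2 nearly level. The log2 ratio of Prox1 to Mmrn1 was -1.71, -1.81 and -1.61 in controls and -1.47, -1.50 and -1.30 in lecko libraries, again without overlap. Among all other tested genes, the ratio to Prox1 did not overlap for 19%, the ratio to Reln for 42.5% and the ratio to Pdpn for 7.9%. The ratio of Lyve1 to Pdpn, the pair of surface markers, was lower in every lecko library, with log2 values of 0.68, 0.52 and 0.71 in controls and 0.41, 0.26 and 0.29 in lecko libraries. These pairs were singled out after their values were seen and carry no test.

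Each gene was also set against the endothelial RNA of its own library, as log2 CPM minus the mean log2 CPM of 16 pan-endothelial genes. The reference genes themselves mostly had negative log2 fold changes: 15 of the 16 were negative, with a median log2 fold change of -0.25. By edgeR 8 had an unadjusted p under 0.05, against 8.56% of all tested genes, but 0 passed over all genes. The DESeq2 test likewise gave 8 at an unadjusted p under 0.05 and called 0. Claudin 5 (Cldn5, an endothelial tight junction protein, log2 fold change -0.46), Robo4 (a guidance receptor, -0.53) and Cdh5 (VE-cadherin, -0.25) had the smallest p. With sex as a covariate 3 of the 16 had an unadjusted p under 0.05, and without lecko 3 there were 5, with medians of -0.21 and -0.20. Erg was the sole positive member of the reference (0.26) and is also counted among the factors upstream of Prox1.

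Relative to this reference, Prox1 stood at -0.76, -0.75 and -0.63 in controls and -0.50, -0.41 and -0.03 in lecko libraries, all lecko values higher. The difference of 0.40 had p = 0.1 by an exact permutation test (two-sided, 0.2 adjusted over the 10 genes), which is the lowest p possible with 20 arrangements. Pdpn, Sned1, Maf and Stab2 were likewise higher in all lecko libraries, with differences of 0.44, 0.32, 0.30 and 0.97, the last from at most 12 reads per library. Without lecko 3 the difference was 0.26 for Prox1 and 0.20 for Maf, without control 3 it was 0.30 for Pdpn, and without control 1 it was 0.59 for Stab2. That makes 5 of 10 identity genes, and 45.6% of all tested genes were also higher without overlap against this reference. Mmrn1 (0.11), Lyve1 (0.12), Fgl2 (0.08), Reln (-0.04) and Cldn11 (-0.19) overlapped. Kdr differed by -1.48 on the same scale.

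**Figure D3:**
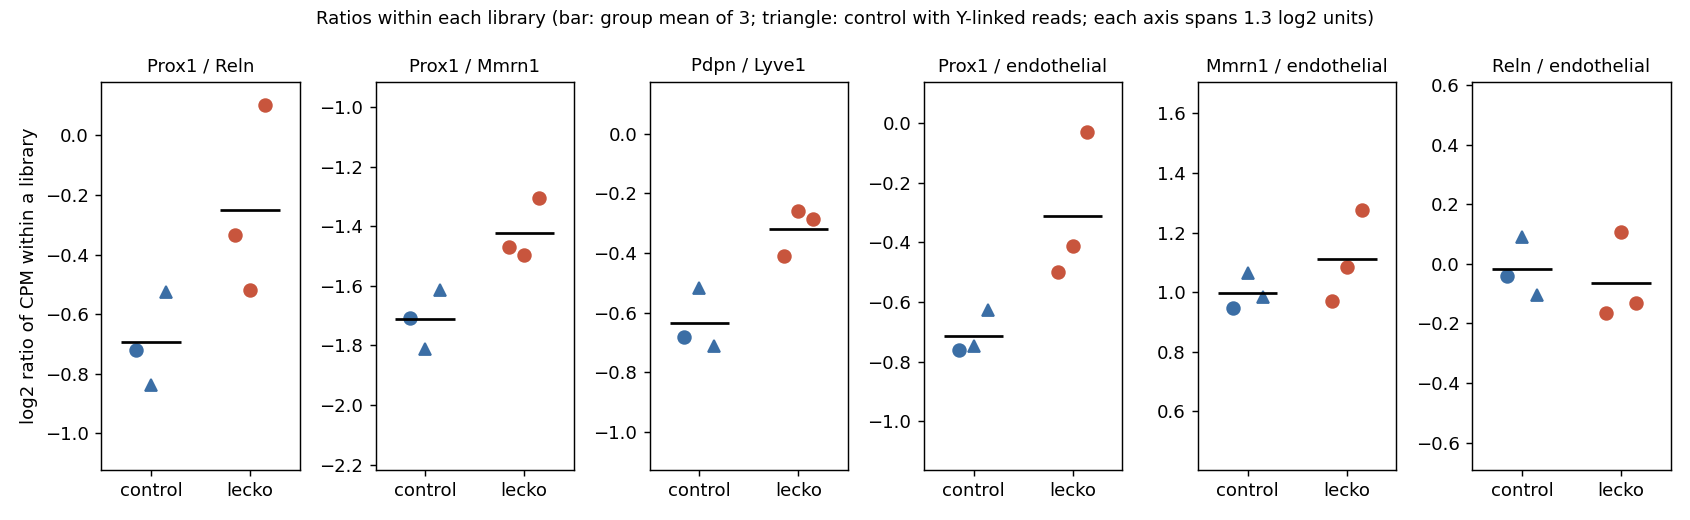
Log2 ratios of CPM within each library (vertical axes, each spanning the same number of log2 units) for 3 pairs of identity genes and for Prox1, Mmrn1 and Reln against the pan-endothelial mean; points are libraries, bars group means, triangles the controls with Y-linked reads. Prox1 to Reln, Prox1 to Mmrn1, Pdpn to Lyve1 and Prox1 to the endothelial mean are higher in all lecko libraries, while Mmrn1 and Reln to the endothelial mean overlap.

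The stretches upstream of Prox1, Mmrn1 and Reln are shown because the ratios of Prox1 to the other two differed between the groups without overlap. Each is the 250 bases before a RefSeq transcription start in GRCm38.p6, on the strand of the gene, and 0 of its bases lie in an exon of that gene in GENCODE M21. Capitals mark matches, on either strand, to GGAA (core of ETS factors such as Erg and Fli1), ACAAT (SOX factors), AGATAA (for GATA factors), AGGTCA (bound by nuclear receptors such as Nr2f2) and TGCTGA (part of the MAF site). No match of 1 motif overlapped a match of another in these stretches.
Prox1, chr1:190170828-190171077, minus strand: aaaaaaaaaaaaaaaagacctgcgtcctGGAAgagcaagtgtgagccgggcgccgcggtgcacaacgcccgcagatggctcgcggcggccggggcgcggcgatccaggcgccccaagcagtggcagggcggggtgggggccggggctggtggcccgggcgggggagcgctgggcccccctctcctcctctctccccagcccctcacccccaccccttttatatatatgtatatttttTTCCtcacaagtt
Mmrn1, chr6:60944067-60944316, plus strand: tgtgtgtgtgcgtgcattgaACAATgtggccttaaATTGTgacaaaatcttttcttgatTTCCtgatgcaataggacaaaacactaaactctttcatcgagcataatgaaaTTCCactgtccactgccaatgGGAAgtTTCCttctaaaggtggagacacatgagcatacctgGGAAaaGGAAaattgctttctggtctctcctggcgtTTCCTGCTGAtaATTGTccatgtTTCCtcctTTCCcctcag
Reln, chr5:22344706-22344955, minus strand: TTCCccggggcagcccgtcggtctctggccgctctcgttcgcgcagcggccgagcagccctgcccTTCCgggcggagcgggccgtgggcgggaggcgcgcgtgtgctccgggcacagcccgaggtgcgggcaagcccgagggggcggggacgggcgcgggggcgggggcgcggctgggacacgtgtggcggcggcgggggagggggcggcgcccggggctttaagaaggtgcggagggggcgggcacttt
In the Prox1 stretch the capitals are 2 ETS cores, the letters of the other 4 motifs not being in this window. Mmrn1 held 9 ETS cores, 3 SOX matches and 1 MAF match, and Reln held 2 ETS cores. Over 32851 mouse start sites with windows of the same length, 93.4% held the ETS core, 27.7% the SOX letters, 9.99% those of GATA factors, 14% those of nuclear receptors and 16.1% those of MAF factors. Prox1 has a further RefSeq start, chr1:190169516-190169765 upstream of it, with 5 ETS cores. In GENCODE M21 transcripts of the same gene, bases checked shortly after these Prox1 starts were not found, while those for Mmrn1 and Reln were. A match of letters is a description of the sequence and does not show binding.

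Factors that act upstream of Prox1 or with it gave no call. Of 13 such genes, 0 passed the test and 0 had an unadjusted p under 0.05 by edgeR, with 10 negative and a median log2 fold change of -0.05. Sox18, which induces Prox1, gave 11.9, 9.54 and 11.5 CPM in controls and 12.1, 9.66 and 8.34 CPM in lecko libraries, and these overlapped. Nr2f2 (COUP-TFII), the partner of Sox18 in inducing Prox1, gave 22.1, 23.0 and 26.1 CPM in controls and 21.9, 21.7 and 21.5 CPM in lecko libraries. All its lecko values were lower, by 0.13 CPM at the narrowest, with a log2 fold change of -0.13 (adjusted p = 0.705 by edgeR). Gata2, which acts in lymphatic valves, had a log2 fold change of -0.06. Tbx1, a factor of lymphatic development, had -0.25 and Hhex, a homeobox factor upstream of Prox1, had 0.34, with adjusted p = 0.589 and 0.606 by edgeR. All lecko values of Hhex were higher, by 0.33 CPM at the narrowest. Without overlap, 1 of the 13 genes was thus lower (Nr2f2) and 1 higher (Hhex), against 14.6% of all tested genes in either direction. Foxc2, a valve factor, had a log2 fold change of -0.11.

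Genes of the VEGF-C and VEGFR3 axis, which acts on Prox1-positive cells, mostly had positive log2 fold changes. Of its 9 genes, 7 were positive with an unadjusted p under 0.05 by edgeR, where 8.56% of all tested genes had such a p. Their median log2 fold change was 0.34, and 0 were called. Ccbe1, a secreted protein needed to process VEGF-C, gave 24.7, 23.3 and 19.0 CPM in controls and 35.4, 28.8 and 36.1 CPM in lecko libraries. All lecko libraries were higher, with a log2 fold change of 0.58 (SE 0.12; adjusted p = 0.373 by edgeR). DESeq2, which called 32 genes in all, called Ccbe1 (adjusted p = 0.0325), where limma-voom did not call any of the 9. Svep1, a large matrix protein that acts with the lymphatic axis, gave 71.2, 94.4 and 63.2 CPM in controls and 109, 106 and 109 CPM in lecko libraries, a log2 fold change of 0.50 (adjusted p = 0.487 by edgeR).

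The ligands Vegfc (0.27) and Vegfd (0.34), the co-receptor Nrp2 (0.24), the integrin Itga9 (0.38) and the protease Adamts3 (0.50), which cleaves VEGF-C, were the others of the 7. Flt4, the receptor, averaged 31.5 CPM over the controls (SD 2.70) and 28.2 CPM over the lecko libraries (SD 0.488), with log2 fold change -0.16 (adjusted p = 0.613 by edgeR). Without lecko 1 or lecko 3, 4 of the 9 had an unadjusted p under 0.05 (Ccbe1, Svep1, Nrp2 and Vegfd both times), and with sex as a covariate there were 5. Without control 1 there were also 5, of which 4 were higher and Flt4 was lower (log2 fold change -0.23, unadjusted p = 0.0168 by edgeR). Leaving out control 3 gave 5, all higher. Without control 2, edgeR called Svep1 (adjusted p = 0.0129) and Itga9 (adjusted p = 0.0419). That fit called 37 genes over the whole table, 36 of them higher, against 3 in the main fit. Summed fibroblast marker levels overlapped, with 22548 to 36147 CPM in controls and 27053 to 29751 CPM in lecko skin, most of it from the collagen genes Col1a1, Col1a2 and Col3a1 (log2 fold changes of -0.20, -0.01 and 0.01). Of the 12 fibroblast genes 9 were positive and 0 were called. Pdgfra (0.23) and Dpp4 (0.22) had an unadjusted p under 0.05 by edgeR, where 8.56% of all tested genes did. The part of fibroblasts in the values of this axis was not tested.

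Other genes of lymphatic capillaries did not pass the test either, 0 of 15 by edgeR, with a median of -0.05. At an unadjusted p under 0.05 there were 2, both lower, where 8.56% of all tested genes had such a p. These 2 were the chemokine gene Ccl21a (log2 fold change -0.58) and Ackr4, a scavenger receptor for CCL21 (-0.23). Ccl21a values were not whole in any library (1407.17 to 2680.62 before scaling), so they are estimates rather than plain read counts. Adgrg3, an adhesion receptor, had the next smallest p (-0.39). Ligands and partners of the identity proteins had a median of 0.03 over 15 tested genes, with 0 called. Beside the same 8.56% of all tested genes, 1 of the 15 had an unadjusted p under 0.05. This was Has2, a hyaluronan synthase that makes the ligand of Lyve1 and Stab2, which averaged 5.87 CPM over the controls (SD 0.909) and 8.57 CPM over the lecko libraries (SD 2.01; adjusted p = 0.526 by edgeR). The hyaluronan receptor Cd44 had a log2 fold change of -0.10. The reelin receptors Vldlr and Lrp8 had -0.13 and 0.15, and their adaptor Dab1 had -0.0049. Clec1b, the podoplanin receptor of platelets, had too few reads to be tested.

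**Figure D4:**
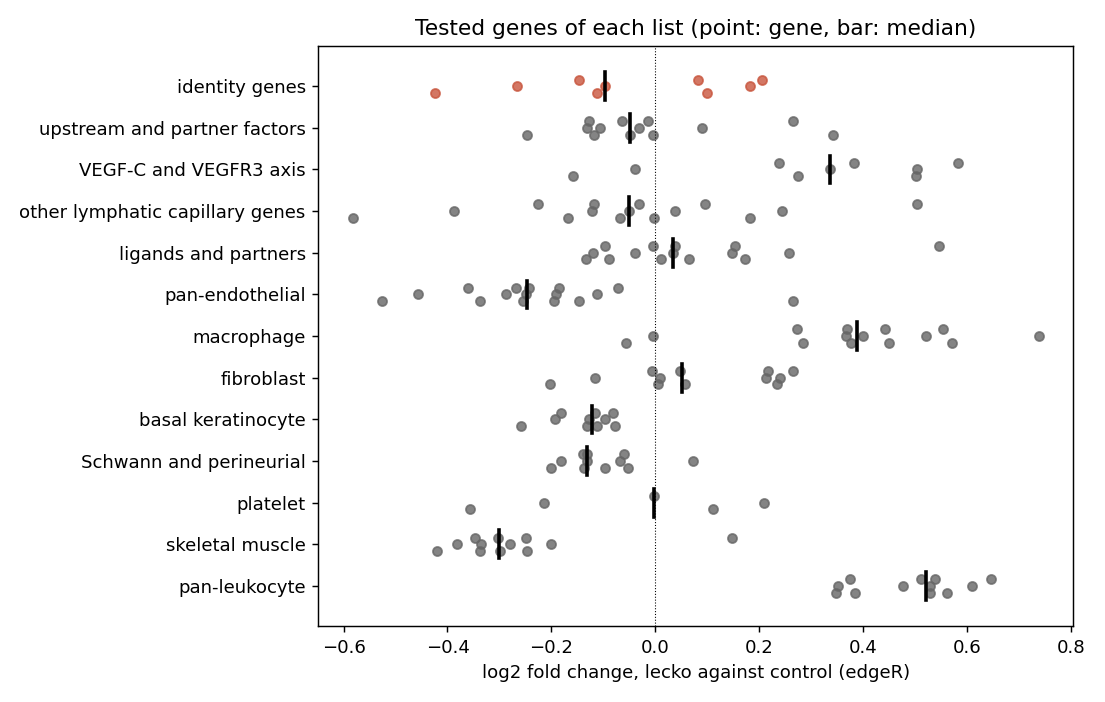
Log2 fold change (horizontal axis, lecko against control) of each tested gene in 13 lists; points are genes and bars are medians. The identity genes lie on both sides of 0 with a median of -0.10, the VEGF-C and VEGFR3 axis has a median of 0.34 and the pan-endothelial list one of -0.25.

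Some identity proteins are also made by other cells, whose markers gave the following levels. For comparison, 8.56% of the 14856 tested genes had an unadjusted p under 0.05 by edgeR (726 genes higher and 546 lower). Macrophage genes summed to 757 to 1073 CPM in controls and 1017 to 1223 CPM in lecko skin, with 12 of 14 positive, 4 at an unadjusted p under 0.05 and 0 called. Of the identity genes that macrophages also make, Maf was positive while Lyve1 and Fgl2 were negative. Pan-leukocyte genes summed to 263 to 401.5 CPM in controls and 400.6 to 534 CPM in lecko skin, with 12 of 12 positive, 8 at an unadjusted p under 0.05, 0 called and a median of 0.52. Basal keratinocyte genes, whose cells can make Pdpn, had a median of -0.12 over 10 genes, all negative and 1 at an unadjusted p under 0.05. Fibroblast genes had a median of 0.05 over 12. Skeletal muscle genes summed to 5774 to 6502 CPM in controls and 4308 to 5553 CPM in lecko skin without overlap, with 11 of 12 negative, 6 at an unadjusted p under 0.05 and 0 called. Prox1 is made by slow muscle, and the slow-fibre genes in this list, Myh7 and Tnnt1, had log2 fold changes of 0.15 and -0.28. None of the listed markers was at zero in all libraries. The part of these cells in the identity gene values was not tested.

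The genes with profiles most like Prox1 over the 6 libraries, by root mean square difference of centred log2 CPM, were Rassf5 (0.03), Rbl1 (0.03), Nxt2 (0.04), Acer3 (0.04) and Faxc (0.04), among 13208 candidates. All 5 were highest in lecko 3 and lowest in control 1, as Prox1 was. The genes most like Lyve1 were Slc39a14 (0.03), Acvrl1 (0.04), Fbln1 (0.04), Plekhf1 (0.05) and Rnf169 (0.05), and all 5 were lowest in lecko 2. Acvrl1 encodes an endothelial receptor for bone morphogenetic proteins, and Fbln1 a fibroblast matrix protein. These distances rest on 6 libraries that share tissue and depth and describe likeness only.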

How the data were processed

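The deposited table gives each gene's estimated counts, not normalized by the authors, in 6 libraries of polyadenylated RNA. This unit was read from the values: between 9.60% and 10.5% of them in a library were not whole, though all those of the 10 identity genes were. HISAT2 2.2.1, Bowtie2 2.4.5, RSEM 1.3.1 and GRCm38.p6 are named in the submitters' processing notes, with no role given. The sources used here do not give the annotation or the strand setting.

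Counts were rounded, filtered with filterByExpr (minimum count 10, minimum total 15, leaving out 3626 genes), scaled by TMM and tested with edgeR 4.0.16 in R 4.3.3 (robust quasi-likelihood fit, group alone, Benjamini-Hochberg adjustment over 14856 genes, threshold 0.05). Intervals are 95% intervals from that fit. Log2 CPM used a prior count of 2. Coordinates and promoters come from RefSeq tables of GRCm38.p6, where 8 of the 10 genes had a promoter entry. Transcript lengths come from GENCODE M21 on GRCm38. Within each group, no library was a duplicate of another (chi-square per degree of freedom of 8.14 to 16.8). Libraries of different groups were not compared in this way.

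Identity genes and lists were chosen with earlier results of these data known. Taz was dropped from the list of upstream factors because this symbol names tafazzin in the table. Named genes were the 10 identity genes, Kdr and the genes most like Prox1 and Lyve1. The 3 genes with the smallest p are named for the upstream factors, the VEGF-C and VEGFR3 axis, other lymphatic capillary genes and pan-endothelial genes. In the remaining lists these 3 are not all named. Further genes are named for their role, or because they had an unadjusted p under 0.05, after values were seen. The alternatives were DESeq2 1.42.0, limma-voom (limma 3.58.1), other scalings and filters, a fit without robust estimation, a replicate block, sex as a covariate, and leaving out libraries. Counts at an unadjusted p under each alternative were added after seeing the data. The edgeR script was checked on simulated counts.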

Additional observations from a re-analysis of the deposited data

How the results depend on the processing

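Over 17 alternatives, 0 identity genes were called, and the 9 tested genes kept the sign of their log2 fold change in all 17. Their 153 adjusted p-values, from edgeR, DESeq2 or limma-voom, ran from 0.319 to 0.999. The median of the set lay between -0.11 and 0.02, with Stab2 in it where an alternative tested that gene. Kdr was called in all 17 alternatives, with log2 fold changes between -1.78 and -1.62. The number of genes called over the whole table was 3, against 32 by DESeq2 (22 higher, 10 lower), and it ranged from 3 to 37 with single libraries left out, being 8 without control 1, 37 without control 2 and 6 without lecko 2. The cause was not tested. Relative to the endothelial reference, the difference of Reln was -0.04, lay between -0.13 and 0.01 with single libraries left out, and changed sign without control 2 (0.0098) and without lecko 1 (0.0063). No other identity gene changed sign there. With a replicate block, 3 genes were called in all and 0 identity genes. In that edgeR fit the unadjusted p was 0.00855 for Reln (adjusted p = 0.485) and 0.0496 for Cldn11 (adjusted p = 0.587). The labels do not say whether replicate numbers pair the samples. Deviations of same-numbered libraries from their group mean correlated at 0.34, -0.07 and 0.04 over genes. The value for control 1 and lecko 1 was the highest of all pairs. Control 2 correlated best with lecko 3 (0.08) and control 3 with lecko 2 (0.23). Deviations within a group sum to 0, so these values depend on one another and do not settle the pairing. Sex was taken from Y-linked counts (threshold 10 CPM), and without the controls above it 1 control remained, assumed to vary like the lecko libraries. In that fit Prox1 was at 0.25 and Reln at -0.22. With sex as a covariate they were at 0.26 and -0.21, since that fit also takes its group difference from control 1 against the lecko libraries. Depth limits Stab2 and Cldn11 most, with 36.1% and 14.1% counting error per library.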
